A study of Mus musculus with 24 samples.

Results

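The 8 genes described here, Myh1, Myh2, Myh3, Myh4, Myh7, Myh8, Myh9 and Myh10, encode myosin heavy chains, and they were chosen as all probe sets whose annotated symbol is 1 of these names. They are 8 of the 18193 genes named on the arrays and were measured by 16 of 45137 probe sets (a probe set is a group of short probes against 1 transcript, summarised to 1 signal). Of the 16 probe sets, 13 reached the signal set as a minimum for testing, which was 30 on at least 3 of the 12 arrays of a design. The cells were C2C12, an established line of mouse skeletal myoblasts, which stop dividing and fuse into multinucleate myotubes once serum-rich growth medium is replaced. They carried the pSuperR vector, either empty or with a short hairpin RNA (shRNA) against p68, the RNA helicase that the gene Ddx5 encodes. With growth medium written as GM and differentiation medium as DM, the 4 groups were GM vector, GM shRNA, DM vector and DM shRNA. Total RNA of each group was hybridised to 3 arrays of the MA design and 3 arrays of the MB design, 24 arrays in all. The stated purpose of the series was to follow muscle genes during differentiation under interference with p68 and p72, and the labels name a hairpin against p68 alone. Control cells carried no hairpin, so the effect of the p68 hairpin and that of carrying any hairpin cannot be told apart. The sources used here do not give the hours in each medium or whether the transduced cells were a pool or a clone. The labels do not say that the 3 arrays of a group came from separate cultures, so the p-values rest on array-to-array spread that may be technical.

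Myosin II is built from a pair of heavy chains, which carry the ATP-hydrolysing motor and a coiled-coil tail, and light chains bound at their necks. In striated muscle the tails pack into the thick filaments of the sarcomere, and each fibre type and age is known by its heavy chain. Myh3 encodes the embryonic and Myh8 the perinatal chain, both used in developing and regenerating muscle; Myh2, Myh1 and Myh4 encode the adult fast chains of fibre types IIA, IIX and IIB; and Myh7 encodes the slow chain, shared with the heart ventricle. Myh9 and Myh10 encode nonmuscle myosins IIA and IIB, which pull on actin stress fibres and the cytokinetic ring of most cells. In mouse the developmental and fast genes lie in 1 cluster on chromosome 11, in the order Myh3, Myh2, Myh1, Myh4 and Myh8, with the noncoding RNA gene Myhas between Myh1 and Myh4.

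The promoters of the cluster genes are shown because their probe sets gave unlike signals below. Probe sets of Myh3 and Myh8 and the brighter Myh1 sets rose clearly in DM, whereas those of Myh2 and Myh4 gave no clear level. Since probe sets differ in how brightly they report, this does not show that the RNA levels of these neighbours differ. RefSeq promoter windows of build GRCm38.p6, from 250 bases before to 50 bases after an annotated start, were found for 8 of the 8 genes; Myh7 had 2 starts. All 5 windows below are read 5′ to 3′ on the plus strand. Capitals mark TATAAA on the transcript strand, a match to the MEF2 consensus on either strand, and a 14-base run that 4 of the genes share.
Myh3: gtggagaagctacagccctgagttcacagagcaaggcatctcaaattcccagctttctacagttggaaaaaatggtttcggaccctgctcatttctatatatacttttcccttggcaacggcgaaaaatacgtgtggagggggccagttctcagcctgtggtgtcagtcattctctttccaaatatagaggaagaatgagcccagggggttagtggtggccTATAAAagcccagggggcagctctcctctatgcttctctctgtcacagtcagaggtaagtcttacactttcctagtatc
Myh8: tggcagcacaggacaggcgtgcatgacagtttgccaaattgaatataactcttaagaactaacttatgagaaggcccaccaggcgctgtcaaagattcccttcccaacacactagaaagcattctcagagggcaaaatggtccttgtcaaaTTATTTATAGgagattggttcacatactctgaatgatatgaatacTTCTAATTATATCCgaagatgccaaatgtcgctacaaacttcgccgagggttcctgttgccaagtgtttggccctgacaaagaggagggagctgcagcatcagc
Myh1: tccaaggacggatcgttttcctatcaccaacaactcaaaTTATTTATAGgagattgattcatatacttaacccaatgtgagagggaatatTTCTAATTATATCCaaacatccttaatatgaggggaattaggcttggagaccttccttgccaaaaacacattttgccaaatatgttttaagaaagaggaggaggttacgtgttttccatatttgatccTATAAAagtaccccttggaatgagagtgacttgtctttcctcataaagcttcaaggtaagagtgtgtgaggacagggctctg
Myh2: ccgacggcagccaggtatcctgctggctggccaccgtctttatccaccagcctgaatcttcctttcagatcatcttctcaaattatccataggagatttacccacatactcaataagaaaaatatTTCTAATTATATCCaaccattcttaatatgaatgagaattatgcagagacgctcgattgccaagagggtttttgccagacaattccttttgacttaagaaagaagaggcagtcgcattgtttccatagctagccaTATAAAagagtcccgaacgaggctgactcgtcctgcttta
Myh4: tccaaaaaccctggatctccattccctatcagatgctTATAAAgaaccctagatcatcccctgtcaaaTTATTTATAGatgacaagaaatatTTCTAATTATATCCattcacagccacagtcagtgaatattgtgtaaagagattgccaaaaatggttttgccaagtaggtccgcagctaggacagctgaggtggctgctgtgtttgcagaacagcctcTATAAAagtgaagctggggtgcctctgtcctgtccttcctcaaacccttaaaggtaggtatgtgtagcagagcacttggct
These are Myh3 at chr11:67078050-67078349, Myh8 at chr11:67276874-67277173, Myh1 at chr11:67199852-67200151, Myh2 at chr11:67170777-67171076 and Myh4 at chr11:67237562-67237861. The longest run shared by Myh1, Myh2, Myh4 and Myh8 was TTCTAATTATATCC. It occurred in 4 of 32851 promoter windows of the same length (0.0122%), and these were the windows of the same 4 genes. The run was picked from these 4 windows, so its presence in them was fixed in advance. The share is given as a description only. Its distance from the annotated start differed. Its first base was at position -54 in Myh8, -125 in Myh2, -158 in Myh4 and -160 in Myh1. The MEF2 consensus, the site of the MEF2 factors that act with MyoD family proteins on muscle genes, matched as TTATTTATAG in Myh8, Myh1 and Myh4, and 3.19% of all windows held a match. The TATAAA letters were found in Myh3, Myh1, Myh2 and Myh4 and in 8.32% of all windows. Their first base was at -29 in Myh3, -32 in Myh1, -213 and -31 in Myh4, and 11 in Myh2, after its annotated start. The distance of the shared run from the start in Myh2 is therefore not directly comparable with that in Myh1 and Myh4. No TATAAA lay in the Myh8 window, which ends 50 bases after the annotated start. Whether such letters lie further on was not searched, so the position of -54 in Myh8 is not directly comparable with the others either. The E-box CANNTG, the site of MyoD and myogenin, was searched on both strands and was found in 6 of the 8 genes and in 72.3% of all windows. The MCAT letters CATTCC, on both strands, were in the windows of Myh1, Myh4, Myh7 and Myh10 and in 14.7% of all windows. The CArG box was in Myh4 and in 1.63% of all windows. The nonmuscle genes differed from the sarcomeric ones in base content: Myh9 and Myh10 had 64.7% and 62.7% G and C with 19 and 18 CpG dinucleotides, against 38.0% to 56.3% and 1 to 9 CpG in the windows of the other 6 genes, where the median of all windows was 52.7% and 7 CpG. A match is a description of letters, and binding was not measured here.

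On arrays in growth medium the sarcomeric chains were near the bottom of the signal scale. In differentiation medium probe sets of Myh3, Myh8, Myh1 and Myh7 gave far higher signals. Values below are MAS5 signals in arbitrary units, scaled by the authors to about the same trimmed mean of 150.1 on each MA array. Changes are differences of log2(signal + 15) with their standard error from a limma fit to the 12 arrays of a design, with Benjamini-Hochberg adjustment over all 14367 MA or 19303 MB probe sets tested and a threshold of 0.05. The added 15 makes the changes of low signals look smaller than they are. Levels are compared within a probe set only, since probe sets differ in how brightly they report. Groups without overlap were common among all tested probe sets. On MA, DM and GM did not overlap at 53.9% in vector and 50.6% in shRNA cells, and the constructs at 30.7% in DM and 30% in GM. On MB these shares were 23.4%, 21%, 13.8% and 14.6%. In vector cells, 5 of the 9 tested MA probe sets of the family rose in DM, 3 fell and 1 did not pass; over all tested MA probe sets, 23.9% rose and 25.4% fell. In shRNA cells the same counts of 5, 3 and 1 held, against 16.3% and 17.5%. Those that rose passed the minimum only through their DM signals, so their rise was built into the filter, and the counts are given as a description. In bulk RNA, a smaller share of differentiated cells and less RNA in each of them cannot be told apart, and this holds for every comparison below.

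**Figure D1:**
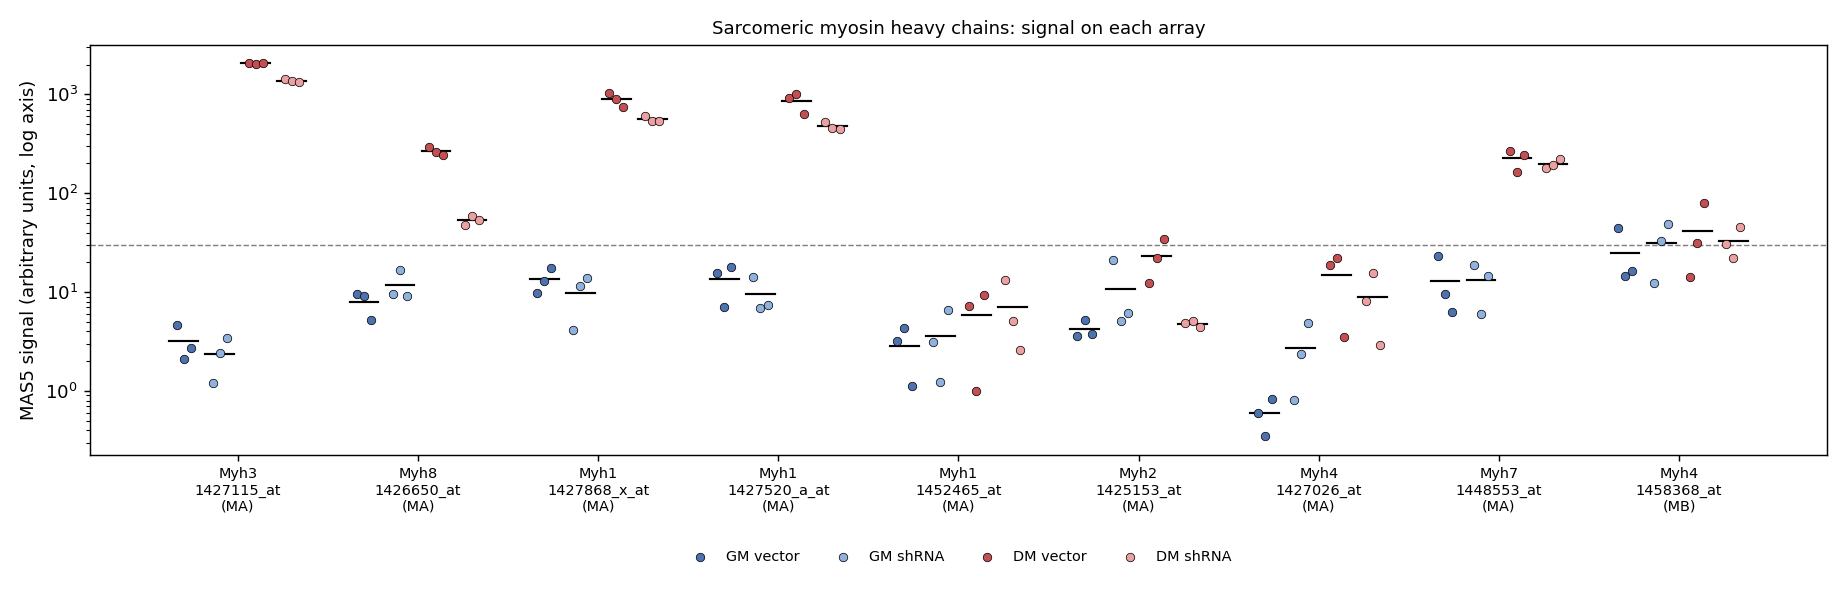
MAS5 signal (arbitrary units, log axis) of the 9 probe sets of Myh3, Myh8, Myh1, Myh2, Myh4 and Myh7 on each array, with 3 points and their mean (short bar) per group; the dashed line is the signal of 30 used for the filter. Myh3, Myh8, Myh7 and 2 probe sets of Myh1 are above the line on every DM array and below it on every GM array, and for Myh3, Myh8 and these 2 probe sets the DM shRNA points lie below the DM vector points.

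Myh3, the embryonic chain, had signals of 4.70, 2.11 and 2.74 in GM vector cells and 1.21, 2.40 and 3.43 in GM shRNA cells. In DM its signals were 2061, 2042 and 2064 in vector cells and 1416, 1370 and 1338 in shRNA cells. Both DM groups lay far above both GM groups, the GM groups overlapped, and every DM shRNA array was below every DM vector array. DM shRNA cells had 0.669 times the mean signal of DM vector cells, 1375 ± 39.3 against 2056 ± 12 (SD, n = 3 each). On the log2 scale this was -0.58 ± 0.11 (limma, adjusted p = 0.00258; 95% interval -0.82 to -0.33). The rise in DM was 6.83 ± 0.11 in vector and 6.33 ± 0.11 in shRNA cells. The difference between these rises, -0.51 ± 0.16, did not pass (limma interaction term, adjusted p = 0.0581); it passed with a pseudocount of 50 (-0.54, adjusted p = 0.0107) and with a stricter filter (adjusted p = 0.0421).

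Myh8, the perinatal chain, showed the widest gap between the constructs in DM of the 13 tested probe sets. GM vector cells had signals of 9.48, 9.19 and 5.18, and GM shRNA cells 9.53, 16.8 and 9.16. DM vector cells had 296, 261 and 244, whereas DM shRNA cells had 47.6, 58.2 and 53.2. The GM groups overlapped, and the DM shRNA arrays stood between the GM arrays and the DM vector arrays without touching either. The mean in DM shRNA cells, 53.0 ± 5.31, was 0.198 times that in DM vector cells, 267 ± 26.9 (SD, n = 3 each). The log2 difference in DM was -2.05 ± 0.17 (limma, adjusted p = 2.67e-06), and in GM it was 0.22 ± 0.17 (adjusted p = 0.537). Myh8 rose by 3.62 ± 0.17 in vector cells and by 1.35 ± 0.17 in shRNA cells. The difference between the rises was -2.27 ± 0.24 (limma interaction term, adjusted p = 5.83e-05), and with any 1 array left out it lay between -2.34 and -2.14. Myh8 was the only member probe set of the 9 on MA whose interaction passed, where 9.95% of all tested MA probe sets passed.

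Set against Myh3 on the same arrays, the fall of Myh8 was the larger. The log2 difference between the Myh8 and Myh3 signals was lower by 1.48 in DM shRNA than in DM vector cells, with no overlap of the groups (difference -1.48; exact permutation p = 0.1, the smallest that 3 against 3 arrays can give, two-sided). For the Myh1 probe sets the same measure was -0.07 and -0.22, with overlapping groups (exact permutation p = 0.7 and 0.4). For Myh7 it was 0.43 without overlap (exact permutation p = 0.1).

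Myh1, the fast chain of type IIX fibres, was read by 3 probe sets on MA, of which 2 gave clear signals in DM. Probe set 1427868_x_at had signals of 9.82, 12.9 and 17.7 in GM vector and 4.14, 11.6 and 13.7 in GM shRNA cells. It had 1041, 894 and 744 in DM vector and 602, 543 and 535 in DM shRNA cells. Every DM shRNA array was below every DM vector array, with means of 560 ± 36.2 and 893 ± 149 (SD, n = 3 each). The difference was -0.65 ± 0.17 (limma, adjusted p = 0.0186). This call was lost with a pseudocount of 5 (adjusted p = 0.0841), without replicate 1 or 2 of DM vector (adjusted p = 0.0701 and 0.0564) and without replicate 2 or 3 of DM shRNA (adjusted p = 0.0677 and 0.0651), while the change itself stayed between -0.77 and -0.53 with any 1 array left out. The rise in DM was 4.99 ± 0.17 in vector and 4.55 ± 0.17 in shRNA cells.

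The second Myh1 probe set, 1427520_a_at, had 913, 1019 and 632 in DM vector and 526, 456 and 451 in DM shRNA cells, again without overlap. Its GM signals lay between 6.93 and 17.9 in both constructs. The difference between constructs in DM was -0.80 ± 0.20 (limma, adjusted p = 0.0117), and without replicate 2 of DM vector it was -0.66 and did not pass (adjusted p = 0.063). Both Myh1 probe sets therefore gave the same direction and a like size. Neither interaction passed (-0.44 and -0.59; limma, adjusted p = 0.314 and 0.225). The ending _x_at marks a set with probes that can also match other transcripts, and _a_at one that reads several transcripts of a gene. The fast chains are close in sequence, so part of this signal may come from another gene of the cluster; probe sequences were not used here. The third Myh1 probe set, 1452465_at, stayed at or below 13.3 on all 12 arrays and was not tested.

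Myh2 and Myh4, the type IIA and IIB chains, gave no clear level. Myh2 signals were 3.57, 5.28 and 3.80 in GM vector, 21.2, 5.12 and 6.18 in GM shRNA, 12.2, 22.1 and 34.7 in DM vector, and 4.83, 5.04 and 4.43 in DM shRNA cells. Only 1 of these 12 values reached 30, so Myh2 was not tested; without a filter, limma gave -0.90 ± 0.24 for shRNA against vector in DM (adjusted p = 0.0274), 0.94 ± 0.24 for DM against GM in vector cells (adjusted p = 0.00712) and an interaction of -1.27 ± 0.33 (adjusted p = 0.0436). Myh4 probe set 1427026_at lay between 0.350 and 22.1 on all MA arrays and was not tested either. On MB, Myh4 probe set 1458368_at lay between 12.4 and 78.9, the groups overlapped in every comparison, and no change passed. The highest value of each of these 3 probe sets was on a DM vector array.

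Myh7, the slow chain, rose in DM as the others did but did not part by construct. Its signals were 22.9, 9.46 and 6.34 in GM vector and 18.6, 6.04 and 14.7 in GM shRNA cells. In DM they were 269, 162 and 245 in vector and 182, 193 and 221 in shRNA cells, so the DM groups overlapped. The rise was 3.12 ± 0.24 in vector and 2.95 ± 0.24 in shRNA cells. The difference between constructs in DM was -0.15 ± 0.24 (limma, adjusted p = 0.744), with a 95% interval of -0.66 to 0.37, which does not show that the constructs were alike. Among the sarcomeric members in DM, the order of groups was therefore vector above shRNA for Myh3, Myh8 and Myh1, with no separable order for Myh7, and in GM no tested sarcomeric member passed between constructs. The GM signals of Myh3, Myh8, Myh1 and Myh7 were all under 30, where the added 15 shrinks changes. A difference between constructs in GM could therefore hardly show at these genes.

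**Figure D2:**
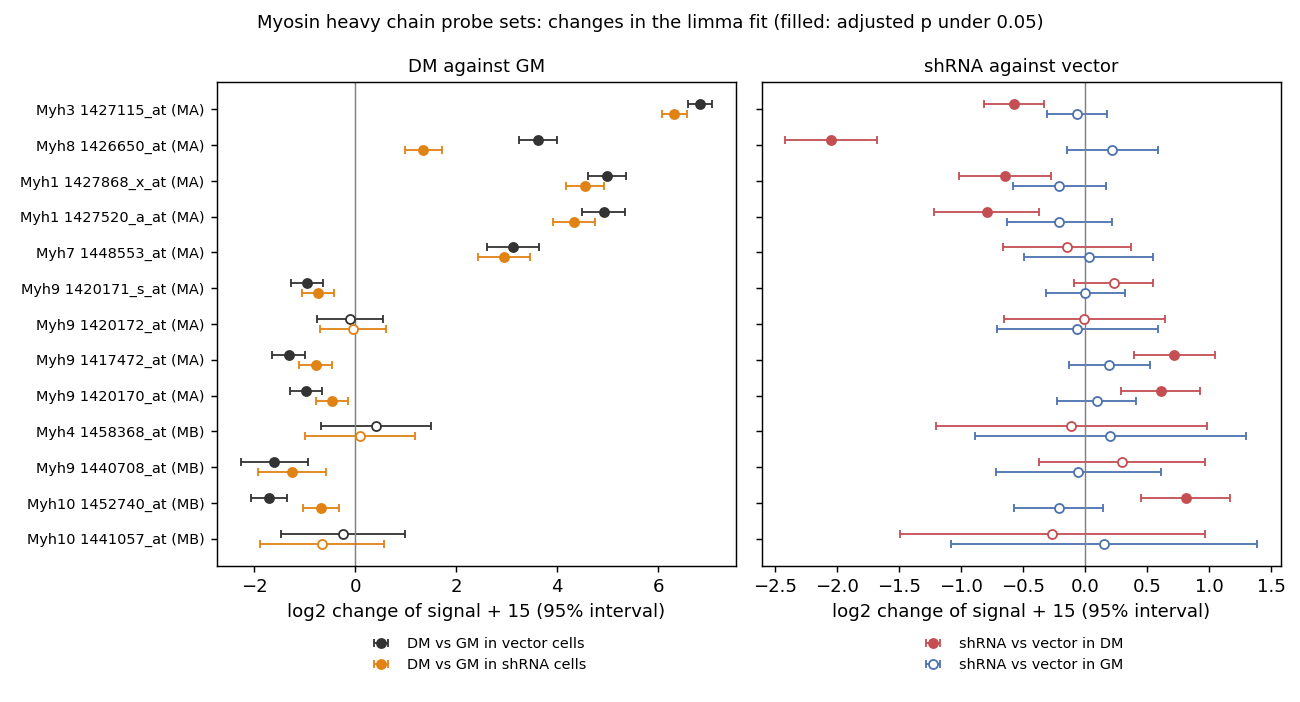
Log2 change of signal + 15 for the 13 tested probe sets (points) with 95% intervals (bars), in DM against GM (left) and shRNA against vector (right); filled points have an adjusted p under 0.05. In DM, Myh8, Myh3 and Myh1 lie left of 0 and 2 Myh9 probe sets and 1 Myh10 probe set lie right of it, whereas all points for GM are open.

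The nonmuscle chains went the other way: Myh9 and Myh10 were high in GM and lower in DM, and part of their probe sets were higher in DM shRNA than in DM vector cells. Myh9, nonmuscle myosin IIA, was read by 4 probe sets on MA and 1 on MB, and Myh10, nonmuscle myosin IIB, by 2 on MB. At Myh9 probe set 1417472_at the signals were 1421, 1110 and 1451 in GM vector and 1455, 1528 and 1547 in GM shRNA cells. They were 419, 586 and 573 in DM vector and 753, 819 and 1056 in DM shRNA cells. The groups stood in the order GM shRNA, GM vector, DM shRNA, DM vector with no overlap between neighbours, although the step between the GM groups did not pass (0.19; limma, adjusted p = 0.542). Mean signal in DM shRNA cells was 876 ± 159 against 526 ± 92.9 in DM vector cells (SD, n = 3 each), a ratio of 1.67 and a log2 difference of 0.72 ± 0.15 (limma, adjusted p = 0.00451). The fall in DM was -1.32 ± 0.15 in vector and -0.79 ± 0.15 in shRNA cells, and the difference between the falls, 0.53 ± 0.22, did not pass (limma, adjusted p = 0.153).

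Probe set 1420170_at of Myh9 had 278, 339 and 343 in GM vector, 285, 372 and 372 in GM shRNA, 130, 159 and 179 in DM vector and 232, 276 and 227 in DM shRNA cells. The DM shRNA arrays were all above the DM vector arrays (0.61 ± 0.15; limma, adjusted p = 0.0104), a call lost without replicate 2 of DM shRNA (0.53, adjusted p = 0.0572). The fall in DM was -0.97 ± 0.15 in vector cells (limma, adjusted p = 7e-05) and -0.46 ± 0.15 in shRNA cells (limma, adjusted p = 0.0272). The latter did not pass without replicate 3 or 4 of GM shRNA or replicate 1 or 3 of DM shRNA, with adjusted p-values from 0.0852 to 0.101.

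The other Myh9 probe sets on MA were affected by 1 array. At 1420171_s_at, a set whose probes can match more than 1 transcript, the signals were 2111, 1777 and 2022 in GM vector, 1788, 2058 and 2074 in GM shRNA, 920, 822 and 1330 in DM vector and 1219, 1220 and 1097 in DM shRNA cells. It fell in DM by 0.96 ± 0.15 in vector and by 0.73 ± 0.15 in shRNA cells (limma, adjusted p = 8.04e-05 and 0.00146). At 1420172_at, replicate 3 of DM vector gave 2457 beside 983 and 774 on the other 2 arrays of its group, and no comparison passed. This replicate also correlated least with its own group over all MA probe sets, with a mean r of 0.951 against 0.962 to 0.983 for the other 11 arrays. Without it, 1420172_at fell in DM in vector cells by 0.60 (limma, adjusted p = 0.0099) and 1420171_s_at was higher in DM shRNA than in DM vector cells by 0.43 (limma, adjusted p = 0.0153; 0.23 and adjusted p = 0.337 with it).

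**Figure D3:**
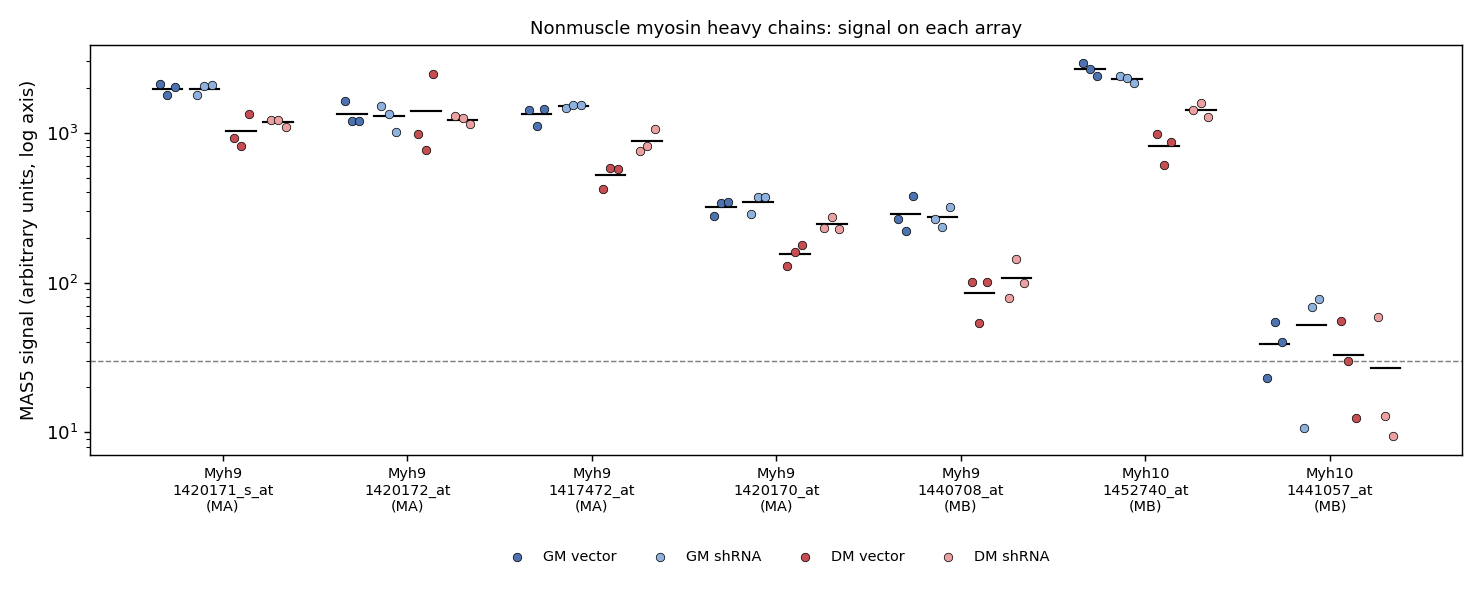
MAS5 signal (arbitrary units, log axis) of the 5 Myh9 and 2 Myh10 probe sets on each array, with 3 points and their mean (short bar) per group; the dashed line is the signal of 30. DM arrays lie below GM arrays at Myh9 1417472_at, 1420170_at, 1420171_s_at and 1440708_at and at Myh10 1452740_at, and 1 DM vector array stands alone at 2457 for Myh9 1420172_at.

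On the MB design, Myh10 probe set 1452740_at had 2916, 2690 and 2384 in GM vector and 2384, 2313 and 2166 in GM shRNA cells. It had 981, 607 and 867 in DM vector and 1420, 1576 and 1275 in DM shRNA cells. No DM array reached any GM array, and the DM shRNA arrays were all above the DM vector arrays. The fall in DM was -1.71 ± 0.17 in vector cells (limma, adjusted p = 1.12e-06) and -0.68 ± 0.17 in shRNA cells (limma, adjusted p = 0.0227). In DM, shRNA cells were higher by 0.81 ± 0.17 (limma, adjusted p = 0.0231), with means of 1424 ± 151 and 819 ± 192 (SD, n = 3 each). That call was lost without replicate 2 of DM vector (0.61, adjusted p = 0.0779), the MB array with the lowest correlation to its own group (0.825 against 0.835 to 0.886), and without replicate 1 or 2 of DM shRNA (adjusted p = 0.0811 and 0.129). It was also lost when only the arrays compared were fitted (adjusted p = 0.13) and in eBayes without the trend (adjusted p = 0.263). The fall in shRNA cells was lost without any 1 of the 3 GM shRNA arrays or replicate 1 or 3 of DM shRNA (adjusted p from 0.0534 to 0.109), and without the trend (adjusted p = 0.221). The difference between the falls, 1.02 ± 0.24, did not pass (limma, adjusted p = 0.0857); it passed with quantile normalization (1.11, adjusted p = 0.0144) and without replicate 1 of DM vector (1.17, adjusted p = 0.0393).

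The MB probe set of Myh9, 1440708_at, had 264, 223 and 381 in GM vector, 264, 235 and 321 in GM shRNA, 101, 54.1 and 101 in DM vector and 79.4, 145 and 99.6 in DM shRNA cells. It fell by 1.61 ± 0.32 in vector and by 1.25 ± 0.32 in shRNA cells (limma, adjusted p = 0.0022 and 0.0243), and the DM groups overlapped (0.30 ± 0.32; limma, adjusted p = 0.826). The fall in shRNA cells was lost without any 1 of the 3 GM shRNA arrays or replicate 1 or 3 of DM shRNA (adjusted p from 0.0511 to 0.12), and without the trend (adjusted p = 0.0639). The second Myh10 probe set, 1441057_at, was low on all arrays and passed in no comparison. In MB as a whole, 2 of the 4 member probe sets fell in DM in each construct, where 5% of all tested MB probe sets fell in vector and 2.57% in shRNA cells.

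Counted over the family, shRNA against vector in DM gave 4 lower (Myh3, Myh8 and 2 Myh1 probe sets), 2 higher (both Myh9) and 3 not called of 9 tested on MA, where 6.24% of all tested MA probe sets were lower and 10.7% higher. On MB it gave 1 higher (Myh10) and 3 not called of 4, where 0.782% were higher. In GM, 0 of 9 and 0 of 4 passed in limma, against 6.56% and 0.275% of all tested probe sets. With an unadjusted p under 0.05, these counts were 0 and 0 as well. The comparisons share arrays: DM shRNA and DM vector each enter both a medium and a construct comparison, so their values stand side by side and are not independent.

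The shRNA's target and the state of the cells bear on these values. Between constructs, 30.7% of all tested MA probe sets did not overlap in DM and 30% in GM. Ddx5 probe set 1419653_a_at, the brightest of its probe sets, was lower with the shRNA in both media without overlap of the arrays. It was lower by 0.68 ± 0.15 in DM (limma, adjusted p = 0.00677) and by 0.31 ± 0.15 in GM, which did not pass (limma, adjusted p = 0.287). Of the 6 Ddx5 probe sets on MA it was the 1 that passed between constructs in DM; the other 5 had overlapping DM groups, with 1423645_a_at, 1454793_x_at and 1438371_x_at at -0.48, -0.45 and -0.28 and 1433809_at and 1433810_x_at at 0.0088 and 0.0004. All 7 skeletal muscle markers (Myod1, Myog, Myf5, Des, Ckm, Acta1 and Mymk) were on MA and their summed signal was 3569 to 3911 in GM vector, 2900 to 3357 in GM shRNA, 26977 to 46301 in DM vector and 23694 to 27357 in DM shRNA cells. The DM ranges overlapped between 26977 and 27357. Of the 7 markers, 2 were lower with the shRNA in DM and 5 did not pass (median -0.36): the creatine kinase gene Ckm by 0.99 ± 0.14 without overlap of the arrays (limma, adjusted p = 0.000199; mean signals of 3282 and 6617) and the intermediate filament gene Des by 0.52 ± 0.16 with overlap (limma, adjusted p = 0.0413). In GM, 1 of the 7 was lower with the shRNA and 6 did not pass (median -0.29, lowest -0.53). No interaction of medium and shRNA passed for the 7. On MB, 2 of these markers were tested, Ckm among them, and neither passed between constructs in DM (-0.35 and -0.18). Each marker gene was read by its brightest probe set. A dimmer Des probe set went the other way in DM without overlap and did not pass (0.19 ± 0.17, limma adjusted p = 0.52). Its mean signals were 56.8 in DM shRNA and 48.3 in DM vector cells. The part of the marker changes in the lower Myh3, Myh8 and Myh1 signals was not tested. The 7 smooth muscle markers summed to 7382 to 10111 in GM and 7996 to 13198 in DM, with Acta2, Smtn and Tagln at 30 or more on all 12 arrays. Most of this sum was Acta2, with mean signals of 6900 in GM vector and 9965 in DM vector cells. The 8 heart markers summed to 202 to 276 in GM and 170 to 296 in DM; Gata4 was at 30 or more on all 12 arrays and Myh6 and Myl7 were under 30 on all. The 4 adipocyte markers on MA summed to 272 to 374 in GM and 153 to 231 in DM, with Cebpa at 30 or more on all arrays and Adipoq and Fabp4 under it on all. The 5 osteoblast and cartilage markers summed to 197 to 319 in GM and 131 to 288 in DM, with Sp7 at 30 or more on all arrays and Ibsp under it on all. The 7 macrophage markers summed to 212 to 366 in GM and 189 to 307 in DM, with Cd14 and Csf1r at 30 or more on all arrays and Ptprc and Aif1 under it on all. The ratio of 3′ to 5′ control probe sets, a sign of RNA quality, differed by 0.006 (log2) between the DM groups on MA, whose ranges overlapped, and by 0.030 on MB, whose ranges did not overlap; in vector cells it was lower in DM than in GM by 0.092 on MA (difference -0.092, no overlap). On MB, where Myh10 was read, it differed without overlap by -0.143 for DM against GM in vector cells and by -0.099 for shRNA against vector in GM. Its part in the medium and construct comparisons was not tested.

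Partner genes of the heavy chains were taken from lists of the thick filament and its assembly, each gene by its brightest probe set. Counts can be read against all tested MA probe sets, of which 23.9% rose and 25.4% fell in vector cells moved to DM and 6.24% were lower and 10.7% higher with the shRNA in DM. Of the genes named, Myl1, Myl2, Myom1, Smyd1 and Mef2c reached 30 on DM arrays only, so their rise in DM was built into the filter. Of 8 genes for sarcomeric light chains and their kinase, 5 were tested on MA. In vector cells 4 rose in DM, with a median change of 6.33 against 0.0085 over all tested probe sets. In DM 4 were lower with the shRNA (median -0.86, against 0.052 over all): the ventricular and slow regulatory chain Myl2 (-1.17 ± 0.24), the embryonic and atrial essential chain Myl4 (-1.05 ± 0.12), the fast essential chain Myl1 (-0.86 ± 0.21) and the fast regulatory chain Mylpf (-0.76 ± 0.13), with limma adjusted p-values from 3.03e-05 to 0.00973. The fall of Mylpf from a mean signal of 8405 to 4883 stood beside that of Myh3 from 2056 to 1375. The rise of Myl4 in DM was smaller with the shRNA (interaction -0.92 ± 0.17; limma, adjusted p = 0.00309), and the kinase gene Mylk2 had an interaction of the opposite sign (1.04 ± 0.28; limma, adjusted p = 0.0303).

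Light chains and regulators of nonmuscle myosin moved at fewer members. Of 8 tested on MA, 3 fell in DM in vector cells (median of the list -0.10), where 25.4% of all tested probe sets fell: Myl12b (-1.25 ± 0.11) and Myl9 (-1.17 ± 0.12), regulatory light chains, and Rhoa (-0.49 ± 0.16), the small GTPase upstream of myosin phosphorylation. In DM, 3 were higher with the shRNA, namely Myl12b by 0.88 ± 0.11, the light chain kinase Mylk by 0.67 ± 0.18 and Myl9 by 0.38 ± 0.12, with limma adjusted p-values of 6.2e-05, 0.0209 and 0.0448. The other 5 did not pass, the median of the list was 0.27, and 10.7% of all tested probe sets were higher. In GM only Myl6 passed (0.85 ± 0.21; limma, adjusted p = 0.0228). Myl12b also had a smaller fall with the shRNA (interaction 0.62 ± 0.15; limma, adjusted p = 0.0186). On MB, the 3 tested genes of the list did not pass between constructs (limma); Ppp1r12b, a myosin phosphatase subunit, rose in DM in vector cells by 0.90 ± 0.24 (limma, adjusted p = 0.0215).

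**Figure D4:**
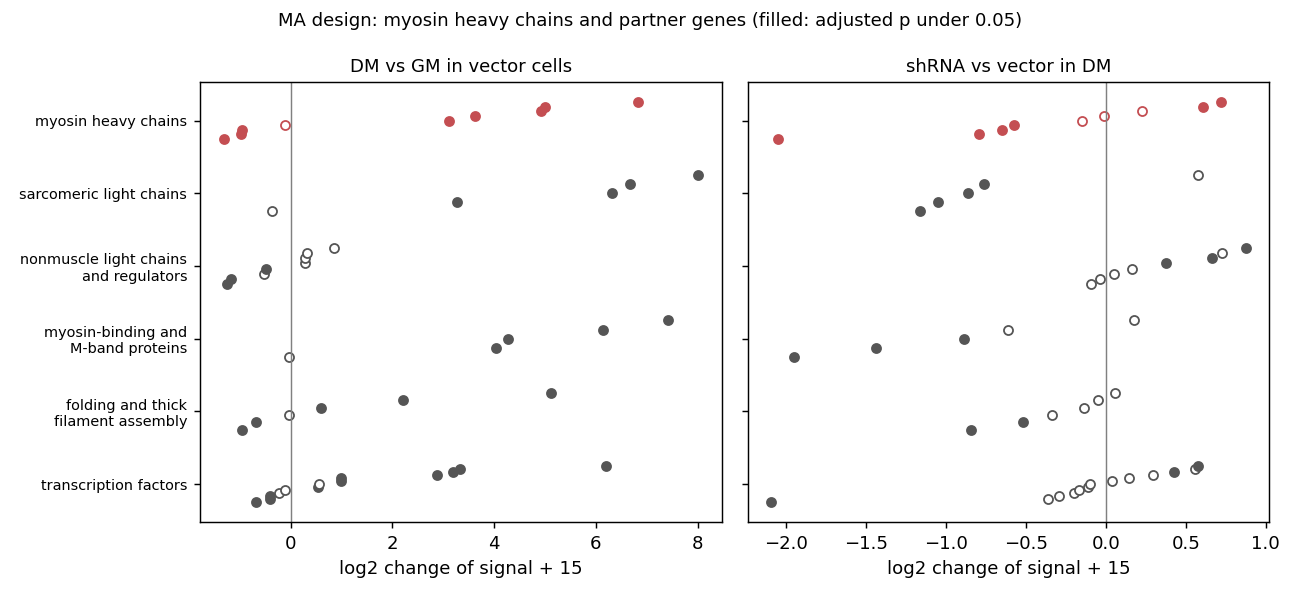
Log2 change of signal + 15 on MA for the myosin heavy chain probe sets (red) and 5 lists of partner genes (grey, 1 point per gene), in DM against GM in vector cells (left) and shRNA against vector in DM (right, narrower axis); filled points have an adjusted p under 0.05. Sarcomeric light chains and myosin-binding proteins that passed lie right of 0 on the left and left of 0 on the right, and the nonmuscle genes that passed lie on the other side of 0 in each panel.

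Myosin-binding and M-band proteins, which space and cross-link thick filaments, rose in DM in vector cells at 4 of 5 tested genes on MA and 5 of 6 on MB, where 23.9% and 4.21% of all tested probe sets rose. With the shRNA in DM, 3 of the 5 on MA were lower: Myom1 (-1.95 ± 0.22), Myom2 (-1.44 ± 0.27) and the ubiquitin ligase Trim54 (-0.88 ± 0.19; limma adjusted p from 3.5e-05 to 0.00475). On MB 2 of 6 were lower, against 0.389% of all tested probe sets, the fast myosin-binding protein C gene Mybpc2 (-2.98 ± 0.53; limma, adjusted p = 0.00679) and Myom2 (-1.49 ± 0.19; limma, adjusted p = 0.000439). Interactions passed for Myom1 (-1.63 ± 0.32; limma, adjusted p = 0.00463) and Mybpc2 (-3.59 ± 0.75; limma, adjusted p = 0.046). The Mybpc2 call was lost in eBayes without the trend, where 0 MB interactions passed. Chaperones and methyltransferases of myosin assembly were mixed. Smyd1, needed for thick filament assembly, rose by 5.12 ± 0.18 in vector cells and was lower with the shRNA in DM (-0.84 ± 0.18; limma, adjusted p = 0.00467), as was the small heat shock protein Cryab (-0.52 ± 0.16; limma, adjusted p = 0.036); the other 4 of 6 tested on MA did not pass. Unc45b, the muscle myosin chaperone, was read on MB and rose by 5.90 ± 0.35, whereas the general form Unc45a fell by 1.05 ± 0.23; Unc45b had -0.99 ± 0.35 with the shRNA in DM and did not pass (limma, adjusted p = 0.243).

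Among 13 tested transcription factors known to act on myosin genes, the vector cells had 7 that rose and 3 that fell in DM, the latter near the 25.4% of all tested probe sets. Myog, the muscle-specific factor myogenin, rose by 6.19 ± 0.17 in vector and 6.12 ± 0.17 in shRNA cells. Mef2c was the only 1 of the 13 that was lower with the shRNA in DM (-2.09 ± 0.29; limma, adjusted p = 0.000182), with mean signals of 30.1 ± 8.75 and 189 ± 87.9 (SD, n = 3 each). Its rise was 3.32 ± 0.29 in vector and 1.36 ± 0.29 in shRNA cells, an interaction of -1.96 ± 0.41 (limma, adjusted p = 0.0073), beside -2.27 ± 0.24 for Myh8. Mef2a, of the same family, rose by 3.19 ± 0.15 and 3.15 ± 0.15. Six4 (0.57 ± 0.13) and Nfix (0.43 ± 0.11), a factor of fetal muscle, were higher with the shRNA in DM (limma, adjusted p = 0.00668 and 0.0157), 2 of 13 beside 10.7% of all tested probe sets.

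Heavy chain genes outside the 8 were measured less well. Myh14, nonmuscle myosin IIC, passed in no comparison on MA. Myh7b, a slow-type chain read on MB, rose in vector cells by 1.74 ± 0.40 (limma, adjusted p = 0.00759), its mean going from 26.5 ± 10.9 to 124 ± 39.9 signal units (SD, n = 3 each). Its construct differences did not pass in DM (0.76 ± 0.40; limma, adjusted p = 0.538) or GM (1.26 ± 0.40; limma, adjusted p = 0.339). Myhas, the noncoding RNA of the fast cluster, rose by 2.10 ± 0.21 in vector and 1.33 ± 0.21 in shRNA cells and was lower with the shRNA in DM (-0.68 ± 0.21; limma, adjusted p = 0.0372), the same direction as Myh1 beside it. Probe set 1448554_s_at, annotated to both Myh7 and Myh6 and so counted for neither, rose by 2.28 ± 0.20 and 1.88 ± 0.20 and had -0.07 ± 0.20 between constructs in DM (limma, adjusted p = 0.867), close to the Myh7 values.

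The genes whose log2 signals followed each member most closely over the 12 MA arrays were picked from 6458 candidate probe sets; Pearson's r is given as a description, since all 12 points carry the same GM to DM step. For Myh3 they were Cap2 (r = 0.999), Mylpf (0.998) and Ppfia4 (0.998). For Myh1 they were Tnnt3 (0.997), a fast troponin T, Cap2 (0.997) and Lmod2 (0.997). Myh8 had other neighbours: Uqcc1 (0.990), Fabp3 (0.987) and Rars (0.987). For Myh7 they were Fyn (0.988), Mllt11 (0.986) and Hrc (0.985), and for Myh9 Nudt4 (0.970), Grn (0.968) and Elk3 (0.967).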

How the data were processed

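The authors deposited 1 MAS5 signal per probe set and array, an intensity on a linear scale; MAS5 is named in the submitters' processing notes, and the sources used here do not give its version, settings or detection calls. Judged by the values, arrays had been scaled to a common mean: with 2% trimmed at each end it was 150.1 on MA and 150.0 on MB arrays. Groups and replicate numbers came from the labels' titles. Gene names came from GEO's annotation of the array platforms, and probe sets with several symbols (691 on MA, 245 on MB) were left unnamed. The model, in limma 3.58.1 under R 4.3.3, had 1 mean for each of the 4 groups on log2(signal + 15), used the 12 arrays of a design (8 residual degrees of freedom) and eBayes with a mean-variance trend, and was fitted for probe sets at 30 or more on at least 3 arrays; MA and MB were scaled and fitted apart. The median residual SD was 0.214 on MA and 0.523 on MB, so MB detects less. On simulated data with known changes for shRNA against vector in DM, 36 of 50 probe sets with a true log2 change of 1 were recovered on MA (among 14367 simulated) and 5 of 50 on MB (among 19303). The simulation changed only 50 probe sets for each size of change, whereas 2430 were called on MA in the data. Since the adjustment depends on how many change, recovery on MA need not match that in the data. Single values were also tested with exact two-sided permutation of 3 against 3 arrays.

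All member probe sets are reported, and a gene is represented by its brightest probe set where 1 is needed. From each partner list up to 4 genes per comparison are named, those that passed with the largest change or else the brightest, plus Ddx5, and for each member the 3 MA genes with the highest r among those whose highest group mean was 150 or more. The members, the lists and these rules were chosen with earlier results of these data known. The alternatives tried were other pseudocounts (5 and 50), no filter and a filter at 75, quantile normalization, no trend, only the arrays compared, the replicate number as a block, and leaving out each array. Promoter windows are RefSeq's, of GRCm38.p6.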

Additional observations from a re-analysis of the deposited data

Results flagged for a closer look

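The difference between constructs in how Myh8 answered the medium was flagged, as the only interaction of the 9 tested MA member probe sets that passed. Over all tested MA probe sets 9.95% passed, so 1 of 9 is near that share. The rise of Myh8 in DM was 3.62 ± 0.17 in vector and 1.35 ± 0.17 in shRNA cells, and the test of this difference gave -2.27 ± 0.24 (limma interaction term, adjusted p = 5.83e-05; 3 arrays per group). DM shRNA arrays were lower than every DM vector array in 3 of 3, whereas the GM groups overlapped. Over all tested MA probe sets, 12.3% were lower with the shRNA in DM without overlap. What lies behind the difference was not tested.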

How the results depend on the processing

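Over alternatives other than leaving out an array, 486 of 497 member values kept their direction and their side of the threshold. The values that turned sign were small and uncalled: with quantile normalization, Myh9 1420172_at was at 0.083 for shRNA against vector in DM (-0.0085 as reported) and Myh7 at -0.037 in GM (0.027 as reported). The count of MA member probe sets with a passing interaction went from 1 to 2 with a pseudocount of 50, with no filter and with the stricter filter; the second was Myh3 in the first and last of these and Myh2 with no filter. Fitting only the arrays compared gave 1573 MA probe sets called between constructs in DM in place of 2430, and 101 MB probe sets in place of 226, with 0 members in place of 1 (Myh10). Without the trend, MB calls fell to 19 in DM with 0 members, to 9 from 53 in GM, to 527 from 936 for DM against GM in shRNA cells with 0 members in place of 2, and to 0 from 75 for the interaction. Quantile normalization gave 102 MB calls in GM and 115 for the interaction, of which 1 was a member (Myh10). The cause of these shifts was not tested. The replicate numbers were not taken as pairs, since not every same-numbered pair of arrays had deviations correlated over 0.1: 6 of 13 MA pairs did (range -0.139 to 0.293) and 0 of 18 MB pairs (-0.039 to 0.070). With the number as a replicate block, 64 of 65 member values kept their call, and the fall of Myh9 1420170_at in DM in shRNA cells, -0.34, did not pass (limma, adjusted p = 0.096).

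Leaving out 1 array in turn kept 718 of 780 member values; 23 calls were lost and 3 gained, and the 36 values that turned sign belonged to uncalled changes. For Myh9 1420172_at the ranges were -0.60 to 0.23 for DM against GM in vector cells, -0.21 to 0.078 in shRNA cells, -0.34 to 0.48 for shRNA against vector in DM, -0.19 to 0.10 in GM and -0.28 to 0.55 for the interaction. In GM, shRNA against vector ranged from -0.14 to 0.27 for Myh7, from -0.00047 to 0.22 for Myh9 1420170_at and from -0.069 to 0.072 for Myh9 1420171_s_at. On MB, Myh4 ranged from -0.042 to 0.80 and from -0.24 to 0.36 for DM against GM in vector and shRNA cells, from -0.50 to 0.34 and from -0.065 to 0.54 for shRNA against vector in DM and GM, and from -0.70 to 0.13 for the interaction. Myh10 1441057_at ranged from -0.58 to 0.099 for DM against GM in vector cells and from -0.76 to 0.073 and -0.18 to 0.75 for shRNA against vector in DM and GM, and Myh9 1440708_at from -0.22 to 0.15 in GM. The MA counts of calls ranged from 411 to 1478 between constructs in GM and from 916 to 2045 for the interaction. On MB they ranged from 14 to 74 between constructs in GM, from 126 to 230 in DM with 0 to 1 members, and from 36 to 81 for the interaction with 0 to 1 members; for DM against GM in shRNA cells 0 to 2 members were called. Arrays give no count of molecules, and 3 arrays per group set the precision; signals under 30 have no settled order.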
